A study of Mus musculus with 9 samples.

Results

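In a mouse macrophage-like line grown without RANKL, a clone carrying a CRISPR/Cas9 mutation in Zscan10 was compared with control cells over every gene measured. RAW264, the line used, turns into bone-resorbing osteoclasts under the cytokine RANKL. Zscan10 encodes a zinc finger protein with a SCAN domain, and by its title the series asks how it holds back osteoclast formation. The clone, called KO1 here, and the control cells, called Control, had 3 RNA-seq libraries each. A further clone, KO2, had 3 libraries and is used for the shared estimate of spread and for a few values set beside those of KO1. Per the labels all groups were unstimulated, each clone was grown from a single sorted cell after electroporation of a Cas9 vector, and the mutation lies in exon 2 for KO1 and in exon 5 for KO2. The names of the raw reads carry the opposite exon numbers, so the exon of KO1 is given only as labelled. With 1 clone per exon, what the mutation did and how that cell differed from the rest of the culture cannot be told apart. Whether a group's 3 libraries stem from separate cultures is not labelled, and p-values therefore measure only the spread between these libraries.

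The deposited table of 9 libraries lists 23420 genes, of which 13569 had a read and 9564 had a value of at least 10 normalised reads in at least 3 libraries. These 9564 were tested, and a gene high in 1 group alone passes that filter. The 6 libraries compared held 2033945 to 2458539 reads each. Values are normalised reads, the gene's reads divided by 1 factor per library, and log2 changes ± SE are on the log2(value + 1) scale, which understates the change of genes with few reads. A gene was called when its Benjamini-Hochberg adjusted p in limma lay under 0.05. Zscan10 had 0 reads in all 9 libraries, so its own level checks neither the label nor the mutation. Of 32 macrophage marker genes 27 passed the filter, and the summed level of all 32 was 38676 to 40068 in Control and 54475 to 55586 in KO1. Of those tested 14 rose and 4 fell, or 2 fell without KO1 replicate 1, with a median log2 change of 0.20. Without Lyz2, whose reads can be shared with Lyz1, the sums were 21457 to 21955 in Control and 24809.7 to 25274 in KO1. In bulk RNA, fewer cells with a transcript and less of it per cell cannot be told apart. The part of the marker sum in the results was not tested. No T or NK cell, erythroid or epithelial marker passed the filter.

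Macrophages recognise particles and signals through surface receptors, digest what they take up in acid lysosomes, and handle large loads of lipid and iron. Their lipid supply comes partly from uptake through scavenger receptors and partly from synthesis, which the SREBP factors drive when sterols are low. Members of the MiT family, such as Mitf and Tfec, act on lysosome and osteoclast genes, and osteoclasts use secreted acid and proteases to remove bone.

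Between KO1 and Control 1985 of 9564 tested genes were called (20.8%), 1008 higher (10.5%) and 977 lower (10.2%). A list of interferon-induced genes took 116 of the higher calls, with 116 of 130 tested members higher and 1 lower, and its members are not described further. Counts of the other lists hold the few members they share with it unless they are given without the places left out, which also leaves those members out. Beyond it 1868 genes were called (19.8%), of which 892 rose (9.46% of 9434) and 976 fell (10.3%). Chromosome 12 and the part of chromosome 16 beyond 70 Mb, called distal chromosome 16 here, held 152 and 48 of the lower calls. Without genes of both places 877 rose (9.71% of 9030) and 776 fell (8.59%), so leaving them out took away 15 higher and 200 lower calls. DESeq2 on the reads recovered from the table called 557 higher and 407 lower among these 9030 genes. Libraries of KO1 and Control did not overlap in 32.9% of all tested genes, with KO1 above in 16.4% and below in 16.5%, and 19.8% of the genes were also called. Most changes were small. Among those 9030 genes 114 of the higher calls (1.26%) and 141 of the lower calls (1.56%) went past a log2 change of 1. These shares, and the median log2 change of -0.0022 over the 9030 genes, are the background against which each gene group below is read.

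**Figure D1:**
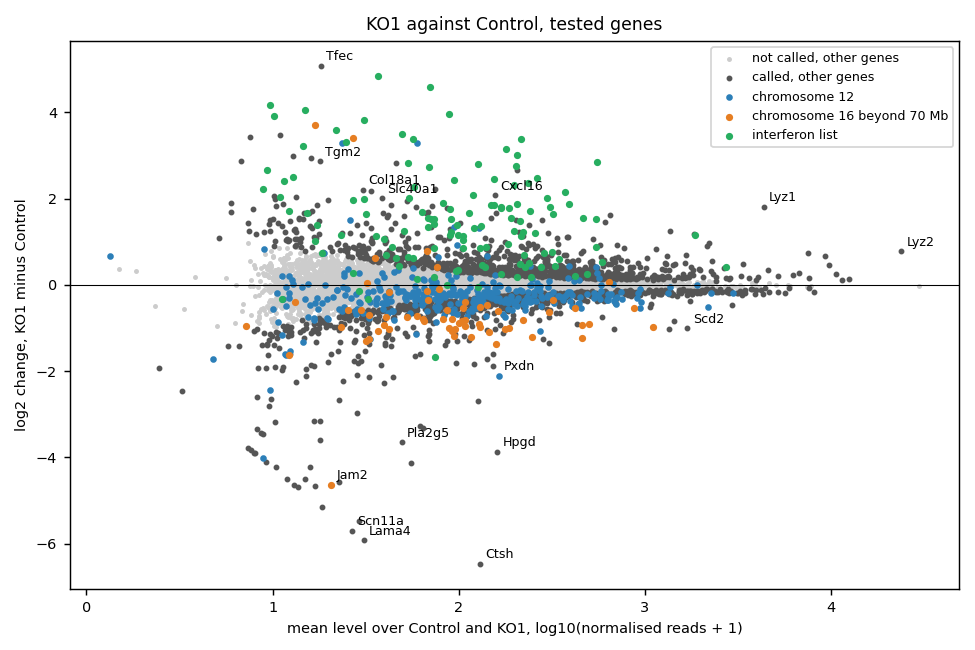
Log2 change in KO1 against Control for each tested gene against its mean level over the 6 libraries, on a log10 axis of normalised reads plus 1. Genes of the interferon list lie mostly above 0, genes of chromosome 12 and distal chromosome 16 mostly below it, and Ctsh is the lowest point at -6.46.

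The largest losses of KO1 beyond those places included genes that Control expressed at a clear level and KO1 hardly at all. The promoters of a few genes with large losses or gains are printed first, to show their CpG content, the letters that DNA methylation acts on. Of those printed, Tfec, Scn11a and Fmnl2 had no reads on their lower side. Enpp4, with 96 reads over the Control libraries, and Hpgd, with 60 over the KO1 libraries, were expressed in both groups. Each line gives the 250 bases before the RefSeq start in GRCm38.p6, 5′ to 3′ on the strand of the gene, with every CG in capitals. Tfec, chr6:16898442-16898691, minus strand, and Enpp4, chr17:44105810-44106059, minus strand, rose in KO1. Scn11a, chr9:119825457-119825706, minus strand, Hpgd, chr8:56294302-56294551, plus strand, and Fmnl2, chr2:52857618-52857867, plus strand, fell.
Tfec: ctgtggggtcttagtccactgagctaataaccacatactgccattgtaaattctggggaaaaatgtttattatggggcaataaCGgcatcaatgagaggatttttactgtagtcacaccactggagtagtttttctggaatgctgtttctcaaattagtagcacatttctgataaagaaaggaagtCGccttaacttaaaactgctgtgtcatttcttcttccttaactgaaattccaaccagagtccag
Enpp4: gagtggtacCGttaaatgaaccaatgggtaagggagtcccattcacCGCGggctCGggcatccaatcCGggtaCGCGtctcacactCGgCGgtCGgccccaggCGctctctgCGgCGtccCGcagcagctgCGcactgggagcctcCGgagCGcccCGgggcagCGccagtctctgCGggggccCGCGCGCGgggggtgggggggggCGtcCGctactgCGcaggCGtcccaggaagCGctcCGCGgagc
Scn11a: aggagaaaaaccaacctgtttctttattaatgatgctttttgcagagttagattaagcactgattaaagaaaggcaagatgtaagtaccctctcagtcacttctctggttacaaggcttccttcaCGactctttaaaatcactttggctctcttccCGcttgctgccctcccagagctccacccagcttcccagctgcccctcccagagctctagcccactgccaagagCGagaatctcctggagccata
Hpgd: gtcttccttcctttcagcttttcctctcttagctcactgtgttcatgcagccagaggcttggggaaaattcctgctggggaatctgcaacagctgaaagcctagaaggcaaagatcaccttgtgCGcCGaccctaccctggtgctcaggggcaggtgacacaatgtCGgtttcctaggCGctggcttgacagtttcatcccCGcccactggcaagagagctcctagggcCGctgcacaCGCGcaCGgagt
Fmnl2: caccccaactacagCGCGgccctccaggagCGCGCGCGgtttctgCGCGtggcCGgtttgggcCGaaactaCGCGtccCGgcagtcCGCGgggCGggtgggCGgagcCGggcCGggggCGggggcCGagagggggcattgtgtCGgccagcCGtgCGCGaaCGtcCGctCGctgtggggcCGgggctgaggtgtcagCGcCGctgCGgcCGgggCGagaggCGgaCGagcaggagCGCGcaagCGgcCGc
Counted in these windows, CG stands 2 times in Tfec, 3 in Scn11a, 9 in Hpgd, 31 in Enpp4 and 40 in Fmnl2. The median over the 7303 tested genes with a window was 17, and 7.39% of them held at most 4. Among the genes printed, sparse and dense CpG thus stood on either side of the comparison. Of the 30 genes with the largest changes, 15 per direction, 17 had a window, with a median of 13 in the 8 that rose and 5 in the 9 that fell. At most 4 stood in 2 of those 8 (25%) and in 3 of those 9 (33.3%). The share was 7.39% of tested genes but 32.6% of all 16355 genes with a window, tested or not. With so few genes these shares are descriptions only.

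Ctsh, which encodes the lysosomal protease cathepsin H, stood at 255, 254 and 257 normalised reads in the 3 Control libraries and at 1.03, 4.99 and 1.02 in KO1. It lies on chromosome 9 from 90054267 to 90076095 on the plus strand in mm10. The groups were far apart, and the fall was 109-fold by the means (log2 change -6.46 ± 0.30, limma adjusted p = 1.61e-25). It was between 84.8-fold without KO1 replicate 3 and 249.5-fold without KO1 replicate 2. Lama4, the alpha 4 chain of laminin in basement membranes, had 52.3, 66.8 and 59.8 in Control and 0 reads in every KO1 library, at least 58.8-fold lower against 3 reads over the group. Scn11a, a voltage-gated sodium channel known from pain-sensing neurons, likewise went from 51.5, 55 and 47.2 to 0 in every library, at least 50.5-fold lower. Fmnl2, a formin that lengthens actin filaments, went from 30.5, 26.5 and 18.9 to 0, at least 24.9-fold lower. The limma adjusted p was 1.12e-15 for Lama4, 8.48e-15 for Scn11a and 1.52e-10 for Fmnl2. A call and groups that did not overlap were conditions for choosing these genes, so neither is a further result.

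Enzymes of lipid mediators were among the large losses. Hpgd, the enzyme that inactivates prostaglandins, had 315, 300.5 and 286 in Control and 13.4, 24 and 23.4 in KO1, a 14.8-fold fall (log2 change -3.87 ± 0.28, limma adjusted p = 1.10e-17). Pla2g5, a secreted phospholipase that frees fatty acids from membrane lipids, had 92.5, 75.6 and 103 in Control and 7.22, 3.99 and 8.13 in KO1, a 14-fold fall (limma adjusted p = 4.86e-22). For both enzymes all 3 KO1 libraries lay below the Control libraries, as the choice of these genes required. The structural and actin genes Sptbn1, a beta spectrin, and Cyfip2, a subunit of the WAVE complex that starts branched actin, left 1 to 2 reads in KO1, and intervals for such ratios cover counting error only. Sptbn1 fell from 27.6 ± 2.95 to 0.344 ± 0.595, a ratio of 80.4-fold (95% exact interval 14.1 to 3213), and Cyfip2 from 29 ± 3.38 to 0.671 ± 0.582, a ratio of 43.3-fold (95% exact interval 11.6 to 363). Psma8, a proteasome subunit known from testis, had 24.4, 23.6 and 17.8 in Control and 0 in KO1, at least 21.6-fold lower (limma adjusted p = 2.50e-17).

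Of the rest of the lower group 3 genes are annotated by function. Hp, haptoglobin, which binds free haemoglobin in plasma, kept 1 read in KO1 against a Control level of 56.2 ± 11.4. Treml2, a receptor of the TREM family on myeloid cells, had 36.6, 28.5 and 29.4 in Control and 1 read in KO1, a ratio of 91.7-fold (95% exact interval 16.1 to 3657). Cnnm1, a membrane protein of the CNNM family, had 43.6, 40.3 and 44.1 in Control and 3 reads in KO1, a ratio of 42.3-fold (95% exact interval 14.2 to 208). The 3 remaining genes of the 15 are predicted genes with names from sequencing projects and are counted without a fold. The 15 genes with the largest losses lie on 10 chromosomes and the 15 with the largest gains on 10. Some lie close together. A lost predicted gene lies near Ctsh on chromosome 9, from 89826519 to 89864028. Clec4a2 and Clec4n, both among the gains, lie between 123122690 and 123247024 on chromosome 6. From 120 to 130 Mb there, 19 of 69 tested genes were called higher and 2 lower.

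Among the 15 largest gains Tfec stood first. Tfec encodes a transcription factor of the MiT family that is known from macrophages and osteoclasts. It had 0 reads in each Control library and 29.9, 25 and 47.8 normalised reads in KO1, at least 35.6-fold higher (log2 change 5.08 ± 0.34, limma adjusted p = 5.56e-19). In KO2 its mean was 32.4 ± 7.87, with a log2 difference between the clones of 0.05 ± 0.34 (limma adjusted p = 0.939). Tgm2, transglutaminase 2, which crosslinks proteins, had 5.23, 2.95 and 2.10 in Control and 34, 22 and 35.6 in KO1, an 8.91-fold rise (limma adjusted p = 2.33e-12). Morc4, a nuclear ATPase with a zinc finger, rose from 0.872, 2.95 and 5.25 to 20.6, 27.9 and 32.5, 8.95-fold. Its rise was between 6.6-fold without Control replicate 1 and 14.2-fold without Control replicate 3. Every KO1 library lay above every Control library in these genes, as their choice required.

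Several of the genes that rose encode receptors or bound and secreted ligands. Clec4a2, an inhibitory C-type lectin receptor, rose 7.39-fold from 10.7 ± 3.98 to 79.3 ± 11.8, and Clec4n, the fungal receptor dectin-2, rose 3.87-fold from 6.72 ± 2.44 to 26 ± 1.16. Cxcl16, a chemokine that is also made as a membrane-bound scavenger receptor, had 65.4, 57.9 and 53.5 in Control and 276, 238 and 246 in KO1, a 4.30-fold rise (limma adjusted p = 2.34e-25). Flt1, a receptor for the growth factor VEGF, rose 3.68-fold from 18 ± 5.02 to 66.4 ± 8.16. Sdc3, a heparan sulfate proteoglycan of the cell surface, had 20.9, 27.5 and 27.3 in Control and 131, 113 and 122 in KO1, a 4.83-fold rise (limma adjusted p = 3.87e-14), and Enpp4, an enzyme that splits nucleotides outside the cell, rose 3.65-fold from 30.6 ± 3.75 to 111 ± 13. Siglec1, the sialic acid receptor CD169, rose 4.80-fold to 54.2 ± 4.09. It is known to respond to interferon although the list left out does not hold it.

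Ion transporters and matrix genes followed. Slc40a1, the iron exporter ferroportin, rose 4.03-fold from 15 ± 5.75 to 60.5 ± 2.66. Slc8a1, an exchanger of sodium for calcium, rose 3.79-fold from 21.6 ± 8.93 to 82 ± 11.2, and Col18a1, the collagen from which endostatin is cut, rose 4.76-fold from 10.3 ± 4.29 to 49.1 ± 5.36. Zfp608, a zinc finger gene, rose 4.32-fold to 30.4 ± 0.528. H2-T24, of the MHC class I family, also rose, and no fold is given because its reads can be shared with close copies.

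**Figure D2:**
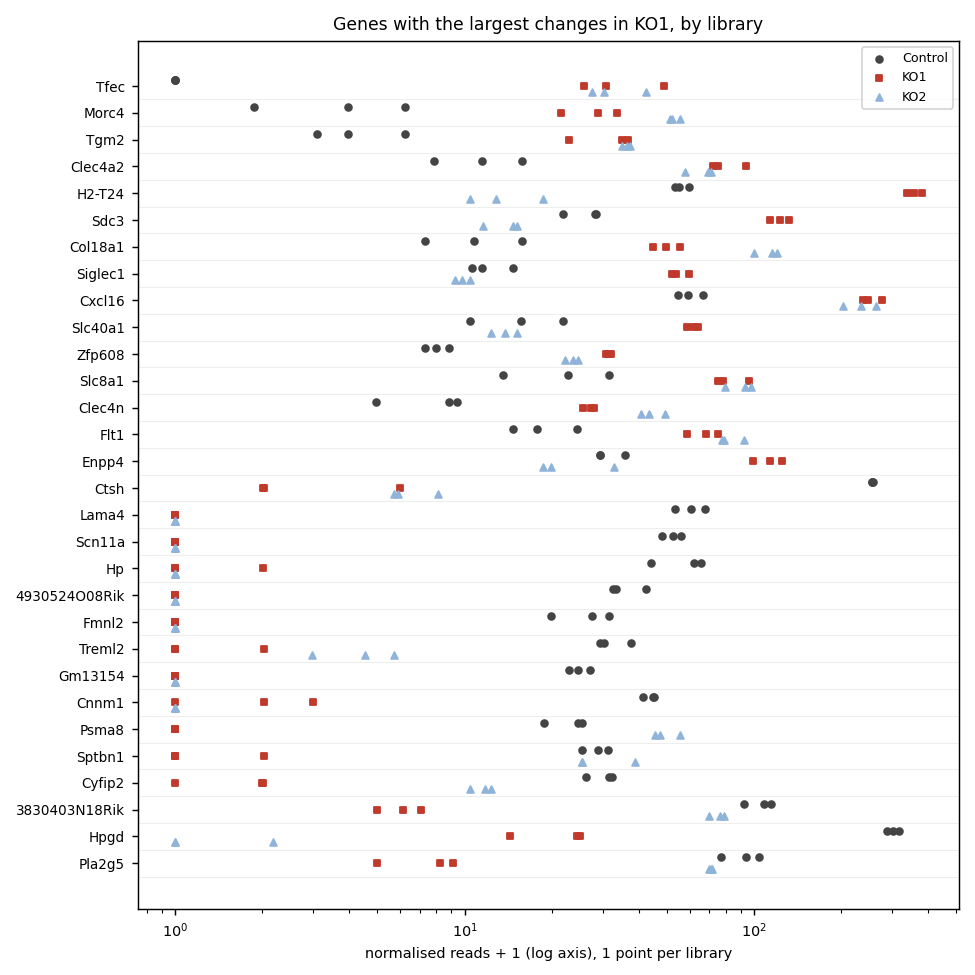
Normalised reads plus 1 on a log axis, 1 point per library, for the 15 genes with the largest rise and the 15 with the largest fall in KO1 beyond the interferon list and the places left out. In each gene the 3 KO1 libraries lie on 1 side of the 3 Control libraries, which was a condition of the choice. Lama4, Scn11a and Fmnl2 stand at 0 reads in KO1.

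Ranked by reads gained or lost instead of by ratio, the changes fell on abundant genes. Spp1, osteopontin, a secreted protein that binds integrins and bone mineral, had 7257, 6952 and 7293 in Control and 10877, 11617 and 11661 in KO1, a 1.59-fold rise (limma adjusted p = 4.65e-30). Itga4, integrin alpha 4, had 5548, 5719 and 5627 in Control and 9532, 9239 and 9328 in KO1, a 1.66-fold rise (limma adjusted p = 2.26e-32). The lysozyme genes Lyz1 and Lyz2 rose as well, with Lyz2 at 17632 ± 451 in Control and 30181 ± 493 in KO1, but they are near-identical copies and get no fold. Car2, the carbonic anhydrase that supplies acid, rose 1.87-fold, Ank, which moves pyrophosphate and other anions out of cells, 2.26-fold to 2545 ± 152, and Dhx9, an RNA helicase, 1.96-fold to 2924 ± 32.9. In the other direction Atp1b3, a subunit of the sodium pump, had 1847, 1824 and 1745 in Control and 867, 889 and 887 in KO1, a 2.05-fold fall (limma adjusted p = 1.97e-29). Gnb1, a G protein beta subunit, fell 1.79-fold from 1828 ± 109 to 1023 ± 46.4. Groups did not overlap in any of these genes, though the ratios were mostly under 2. Rn45s, also taken as lower by this ranking and not counted among the described genes, had groups that overlapped.

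Genes that make sterols lay lower in KO1. Of 25 tested genes of cholesterol synthesis and its control 17 fell and 0 rose, with a median log2 change of -0.35, and as none lies on chromosome 12 or distal chromosome 16 the count is the same without those places. Hmgcs1, HMG-CoA synthase, an early step of the pathway, had 278, 257 and 243 in Control and 170.1, 174 and 199 in KO1, a 1.43-fold fall (log2 change -0.52 ± 0.08, limma adjusted p = 2.82e-07). Further along the pathway Idi1, which isomerises the isoprene unit, fell 1.47-fold to 242 ± 13, and Fdps, which joins such units, fell 1.33-fold to 592 ± 38.7. Lss, which closes the sterol rings, fell 1.45-fold to 137 ± 14.7, and Acat2, which makes the starting acetoacetyl-CoA, fell 1.61-fold to 75.4 ± 10.0. In all 5 genes each KO1 library lay below each Control library, which their choice by the largest moderated statistics of the list favours. The direct test of KO1 against KO2 was past the threshold for Hmgcs1 (log2 difference -0.55 ± 0.08, limma adjusted p = 4.62e-08), Fdps (-0.31 ± 0.05, limma adjusted p = 1.17e-06), Idi1 (-0.48 ± 0.07, limma adjusted p = 1.80e-07) and Acat2 (-0.51 ± 0.12, limma adjusted p = 0.001). It was not past it for Lss (-0.17 ± 0.10, limma adjusted p = 0.201), which stood below Control in KO2 as well (log2 change -0.37, limma adjusted p = 2.66e-03).

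The promoter of Hmgcs1 is printed because it holds the sterol regulatory element searched for, TCACCCCAC on either strand, the kind of site through which SREBP factors act. The 250 bases end at the RefSeq start on the plus strand, chr13:119690101-119690350 in GRCm38.p6, with the match in capitals, and this start lies 111 bases from that in the deposited table.
Hmgcs1: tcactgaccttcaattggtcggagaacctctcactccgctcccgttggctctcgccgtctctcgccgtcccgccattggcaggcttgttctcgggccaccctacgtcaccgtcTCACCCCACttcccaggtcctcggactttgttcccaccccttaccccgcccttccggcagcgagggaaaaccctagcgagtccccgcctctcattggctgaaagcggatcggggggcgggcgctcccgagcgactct
Of 17 cholesterol genes with a window 1 held these letters (5.88%), against 0.534% of tested genes. A match is a description of the sequence and not a site shown to be used.

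In fatty acid synthesis more genes fell than rose. Of 23 tested genes 10 fell and 3 rose (median -0.18), or 9 and 3 of 22 without the places left out, and only 1 rose without Control replicate 3. Scd1 and Scd2 place the first double bond into saturated fatty acids. Scd2 had 2327, 2174 and 2276 in Control and 1040.0, 1169 and 1163 in KO1, a 2.01-fold fall (limma adjusted p = 2.13e-28), and Scd1, with fewer reads, had 82.9, 103 and 89.2 in Control and 23.7, 31.9 and 33.5 in KO1, a 3.09-fold fall (limma adjusted p = 2.72e-11). Neither gene had overlapping groups. Fads2, another desaturase, fell 1.58-fold to 270.3 ± 13.2. Fasn, fatty acid synthase, fell 1.43-fold to 873 ± 22.5, and Acaca, which makes its malonyl-CoA, fell 1.42-fold to 339 ± 23.3.

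Several genes of lipid uptake rose. In the list of lipid uptake, storage and oxidation 9 of 32 tested genes rose and 4 fell, with a median log2 change of 0.02. The 4 falls were 1 without Control replicate 2, 2 without KO1 replicate 2 and 1 in DESeq2. Cd36, a scavenger receptor for modified lipoproteins and fatty acids, had 765, 887 and 791 in Control and 1934, 1899.5 and 1936 in KO1, a 2.36-fold rise (limma adjusted p = 7.89e-33). Lpl, lipoprotein lipase, rose 1.40-fold from 2799 ± 92.7 to 3911 ± 104, the scavenger receptor gene Msr1 1.33-fold to 950.5 ± 23.7, and the lipoprotein receptor gene Lrp1 1.31-fold to 3009.9 ± 32.8. Among 12 tested targets of LXR, the oxysterol receptor, 4 fell and 1 rose, or 2 fell without Control replicate 1, KO1 replicate 1 or KO1 replicate 2, and none rose without Control replicate 1. Both desaturases are among them, and the calls of the cholesterol exporters Abca1 and Abcg1 were lost without KO1 replicate 1 (limma adjusted p = 0.112 and 0.101), as without several other single libraries.

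Among genes of lipid mediators and phospholipases more fell than rose. In the list of eicosanoid and phospholipase genes 11 of 28 tested fell and 3 rose (median -0.22), or 9 and 3 of 26 without the places left out. Alox5, which starts leukotriene synthesis, had 126, 135 and 131 in Control and 55.7, 72.9 and 48.8 in KO1, a 2.21-fold fall (limma adjusted p = 3.05e-09). Ptgs2, the inducible cyclooxygenase that starts prostaglandin synthesis, went up, with 146, 161 and 139.5 in Control and 311, 259 and 270.3 in KO1, a 1.88-fold rise (limma adjusted p = 1.38e-12). The gene that starts prostaglandin synthesis on demand thus rose in the libraries where Hpgd, which ends their action, fell. The phospholipase C genes moved apart, Plcb2 down 2.47-fold to 49 ± 7.05 and Plcb4 up 1.76-fold to 358 ± 26.6. Plcb2 differed between the clones, with a KO2 mean of 308 ± 6.28 and a log2 difference of -2.64 ± 0.11 (limma adjusted p = 4.54e-29).

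**Figure D3:**
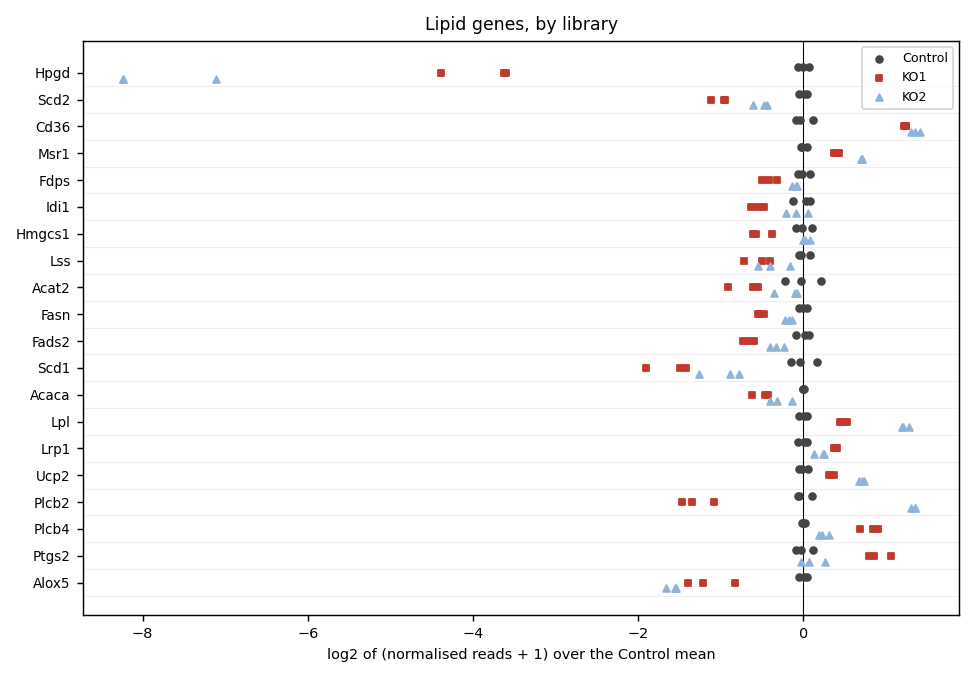
Log2 of normalised reads plus 1 over the Control mean, 1 point per library, for lipid and eicosanoid genes of the lists described. The sterol and fatty acid synthesis genes drawn lie left of 0 in KO1 and Cd36, Msr1, Lpl and Lrp1 right of it, while Hpgd lies furthest left. Of 23 tested fatty acid synthesis genes 3 rose, and these are not drawn.

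Receptors that read antibodies, lectins and cytokines changed in either direction. In the list of Fc receptors and ITAM-linked receptors 12 of 36 tested genes rose and 9 fell, and its median of 0.0015 turned sign between settings. Fcgr2b, the inhibitory Fc receptor for IgG, had 225, 236 and 194 in Control and 32, 38.9 and 28.5 in KO1, a 6.59-fold fall (limma adjusted p = 1.15e-21). Cd33, a sialic acid receptor, had 222, 235 and 194 in Control and 75.2, 60.9 and 58.9 in KO1, a 3.34-fold fall (limma adjusted p = 3.09e-18). Clec4e, the C-type lectin receptor Mincle, went up 1.71-fold to 589 ± 33.2 and Clec5a, another lectin receptor, 1.49-fold to 893 ± 8.14. Clec4a2, described above, is inhibitory like Fcgr2b and rose.

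Cytokine and chemokine receptors were lower more often than higher, 12 against 6 of 37 tested, and 9 against 6 of 33 without the places left out. Il18rap, a chain of the IL-18 receptor, had 119, 111 and 119 in Control and 10.3, 11 and 11.2 in KO1, a 10.7-fold fall (limma adjusted p = 5.34e-23). Csf3r, the receptor for G-CSF and a neutrophil marker, had 49.7, 66.8 and 40.9 in Control and 10.3, 8.98 and 14.2 in KO1, a 4.70-fold fall (limma adjusted p = 1.92e-08). Of 16 neutrophil markers Csf3r alone passed the filter, 11 had no read in any library, and the summed level of the list was 44.1 to 70.7 in Control and 14 to 18.3 in KO1. The part of such cells in the fall of Csf3r was not tested. The gene of the RANKL receptor, Tnfrsf11a, rose 1.69-fold from 254 ± 18.2 to 429 ± 13.7. The list of RANK and NFATc1 signalling that holds it gave 7 higher and 7 lower of 40 tested (median -0.05). Without the places left out it gave 5 and 5 of 36. Of 7 tested osteoclast markers 3 rose, 0 fell and 4 were not called.

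Secreted growth factors and chemokines included several rises. In the list of cytokines and chemokines 7 of 23 tested genes rose, 3 fell and 13 were not called. Its median of 0.05 turned sign between settings. Igf1, insulin-like growth factor 1, had 343, 329 and 306 in Control and 925, 905 and 851 in KO1, a 2.74-fold rise (limma adjusted p = 2.83e-28). It stood higher than in KO2 as well, where the mean was 242 ± 8.75 (log2 difference 1.88 ± 0.06, limma adjusted p = 6.27e-34). Cxcl14, a chemokine found in many tissues, rose 2.31-fold to 422 ± 3.78. Complement and coagulation genes divided, 5 higher and 4 lower of 13 tested. C3, the central complement protein, fell 4.58-fold from 71.3 ± 4.63 to 15.6 ± 0.649. C3ar1, a receptor for a complement fragment, rose 1.88-fold to 154 ± 15.6. Among axon guidance families, which macrophages also use, Plxnd1, a semaphorin receptor, had 197, 186 and 180.4 in Control and 49.5, 54.9 and 51.8 in KO1, a 3.61-fold fall (limma adjusted p = 8.38e-19), while Plxna2 rose 2.18-fold to 107 ± 3.44 and Nrp2 1.41-fold to 1515 ± 40.4.

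Matrix and adhesion genes were more often higher. Of 19 tested matrix and basement membrane genes 10 rose and 2 fell (median 0.23), or 9 and 2 of 16 without the places and the interferon list. Adam8, a membrane protease of macrophages and osteoclasts, rose 1.43-fold to 1074 ± 48.5, whereas Lama4 was the largest fall of the list. Integrin and adhesion genes gave 10 higher and 6 lower of 23 tested, and their median of 0.16 turned sign between settings. Itgav, integrin alpha V, had 216, 253 and 251 in Control and 562, 500.1 and 498 in KO1, a 2.17-fold rise (limma adjusted p = 1.46e-21), and the tetraspanin gene Cd9, known from cell fusion, rose 1.57-fold to 879 ± 30.2. Itgam, the alpha chain of the complement receptor CD11b/CD18, had 399.5, 432 and 395 in Control and 272, 241 and 265 in KO1, a 1.58-fold fall (limma adjusted p = 4.46e-12). Itgav and Itga4 thus rose in the libraries in which the leukocyte integrin gene Itgam fell.

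Cytoskeleton genes moved in either direction too, 21 higher and 14 lower of 73 tested. Vim, the intermediate filament vimentin, rose 1.58-fold from 1013 ± 6.07 to 1604 ± 72.1, Lmna, the nuclear lamina protein lamin A/C, 1.55-fold to 844 ± 16.7, and Tagln2, an actin-binding protein, 1.44-fold to 819 ± 37.6. Svil, supervillin, which links actin and myosin to membranes, had 20.9, 37.3 and 38.8 in Control and 2.06, 0.998 and 2.03 in KO1, a 19.1-fold fall (limma adjusted p = 3.39e-14). Parvg, an adaptor of integrin adhesions, fell 1.68-fold to 440.0 ± 17.3. For regulators of small GTPases 20 of 71 tested fell and 12 rose (median -0.10), with 7 higher without KO1 replicate 2. Arhgef12, an activator of RhoA, had 75, 76.6 and 70.3 in Control and 250.5, 206 and 205 in KO1, a 2.98-fold rise (limma adjusted p = 7.73e-17). Vav3, an activator of Rac known from osteoclasts, fell 2.18-fold to 31.5 ± 9.36, and Rasal3, which switches Ras off, 3.27-fold to 9.15 ± 1.88.

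Beside the near loss of Ctsh, several other cathepsin genes rose. In the list of cathepsins and their inhibitors 7 of 14 tested genes rose and 4 fell, Ctsh among them, or 2 fell without KO1 replicate 3. Ctsl, cathepsin L, had 1189, 1231 and 1197 in Control and 1634, 1699.9 and 1729 in KO1, a 1.40-fold rise (limma adjusted p = 3.12e-17), and Ctsb and Ctsd rose 1.27-fold and 1.19-fold. Lgmn, the protease legumain, fell 1.44-fold and lies on chromosome 12. Of 47 tested hydrolase and membrane genes of the lysosome 8 rose and 4 fell, a share called of 25.5% against 20.8% of all tested genes. Lipa, which splits cholesterol esters, rose 1.34-fold to 2019 ± 60.5, and Slc11a1, which pumps iron and other metals out of phagosomes, 1.84-fold to 217 ± 30.2. Proton pump subunits gave 7 higher and 0 lower of 17, or 3 higher and 1 lower without KO1 replicate 1 and 4 higher without KO1 replicate 3.

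In the list of the MiT family and its targets, which holds Tfec, 9 of 17 tested genes were higher and 1 lower (median 0.15). Mitf itself had 179, 186 and 165 in Control and 278, 243 and 286 in KO1, a 1.52-fold rise (limma adjusted p = 1.37e-08). Gpnmb, a membrane glycoprotein that Mitf is known to raise, rose 1.36-fold to 337 ± 7.54, and Rab32, a GTPase of lysosome-related organelles, 1.43-fold to 169 ± 6.42. The E-box TCACGTG, searched on both strands, stood in 4 of the 17 promoter windows of the list (23.5%) and in 9 of 39 of the lysosome list (23.1%), against 5.55% of tested genes. It was not in the windows of Tfec, Mitf, Gpnmb, Rab32, Acp5, Lipa, Slc11a1 or Ctsl. Acp5, tartrate-resistant acid phosphatase, stayed near the lower limit of the table, with 2.62, 2.95 and 0 in Control and 7.22, 9.98 and 7.11 in KO1 (limma adjusted p = 1.24e-04), and its 4.37-fold rise was between 2.91-fold and 6.19-fold when single Control libraries were left out.

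Several genes of iron and haem handling rose. Of 26 tested genes 10 rose, 1 fell, the fall being Hp, and 15 were not called. The list median of 0.05 turned sign between settings. Hmox1, haem oxygenase 1, which breaks haem down, had 334, 297 and 322 in Control and 919, 1006 and 1026 in KO1, a 3.10-fold rise (limma adjusted p = 7.29e-30), against a KO2 mean of 325 ± 31.8 (log2 difference KO1 minus KO2 1.60 ± 0.06, limma adjusted p = 5.58e-30). Slc48a1, which carries haem out of the phagolysosome, had 216, 227 and 201 in Control and 439, 469 and 471 in KO1, a 2.14-fold rise (limma adjusted p = 8.02e-21). Slc48a1, Hmox1 and Slc40a1, of haem transport, haem breakdown and iron export, were thus each higher. Tfrc, the transferrin receptor, rose 1.42-fold to 1919 ± 50.6, and the ferritin chains Fth1 and Ftl1, which have many processed copies, rose as well. Among NRF2 targets 11 of 30 rose and 5 fell, or 3 fell without Control replicate 3 or KO1 replicate 3, with Gclm, of glutathione synthesis, up 1.59-fold to 359.7 ± 10.9.

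Ribosomal protein genes fell by small amounts. Of 78 tested cytosolic ribosomal protein genes 64 fell and 0 rose (median -0.16), or 61 of 75 without the places left out (median -0.16). Rps12 had 2061, 1902 and 1955 in Control and 1458, 1535 and 1570.0 in KO1 (log2 change -0.37 ± 0.04, limma adjusted p = 1.36e-12), and Rps4x had 3564, 3665 and 3568 in Control and 3066, 3059 and 3059 in KO1 (log2 change -0.23 ± 0.03). The libraries of the groups did not overlap for either gene, but many ribosomal protein genes have processed copies that can share reads. None of the list was called against a fold of 1.5. Of 46 tested translation factors 14 fell and 3 rose, or 12 and 3 of 43 without the places left out, with Eif5a, which helps the ribosome through difficult peptide bonds, down 1.15-fold to 3605 ± 40.6, and DESeq2 called 8 of them lower. Without KO1 replicate 1 only 1 rose.

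Folding genes of the endoplasmic reticulum rose more often than they fell. In the unfolded protein list 19 of 37 tested rose and 1 fell (median 0.17), or 18 and 0 of 34 without the places left out. Hspa5, the chaperone BiP, had 5669, 5862 and 5617 in Control and 6691, 6641 and 6812 in KO1, a 1.17-fold rise (limma adjusted p = 1.04e-10), and Hsp90b1 rose 1.20-fold to 7385 ± 83.9. Edem1, which sends misfolded proteins to degradation, rose 1.32-fold to 1151 ± 22.5. All 3 differed from KO2, where Hspa5 stood at 3730.3 ± 89.2 (log2 difference 0.85 ± 0.03, limma adjusted p = 9.46e-35). Stc2, a secreted glycoprotein, and Phgdh, the first enzyme of serine synthesis, both known as ATF4 targets, fell, Stc2 8.62-fold from 49.4 ± 6.42 to 5.73 ± 2.29 and Phgdh 2.05-fold from 915 ± 37.5 to 447 ± 27.1, while the ATF4 and amino acid list gave 5 higher and 5 lower of 31.

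Some lower calls of metabolic and proteasome lists came from the places left out. Among 76 tested oxidative phosphorylation genes 11 fell and 0 rose, or 1 rose without Control replicate 1. Among the falls Atp5o went down 2.36-fold and Atp5j 2.31-fold, and both are genes of distal chromosome 16. Without both places 9 of 74 fell, 12.2% against 8.59% of all such genes called lower. The proteasome list gave 6 higher and 5 lower of 37, and 6 higher and 1 lower of 33 without the places. Irg1, which makes itaconate in activated macrophages, rose 1.67-fold to 118 ± 8.87, and Fh1, fumarase, fell 1.20-fold to 416 ± 20.5, in a citrate cycle list with 2 higher and 7 lower of 28, or 2 and 5 of 26 without the places.

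Proliferation genes changed in few members. In the S phase list 3 of 48 tested rose and 2 fell, and for G2 and M phase genes 2 of 47 rose and 6 fell, shares called of 10.4% and 17%. Leaving out any of the 6 libraries gave 1 rise among G2 and M phase genes. Aurka, a mitotic kinase, fell 1.22-fold to 311 ± 10.0. Cdkn1a, the cell cycle inhibitor p21, had 446, 444 and 476 in Control and 703, 742 and 689 in KO1, a 1.56-fold rise (limma adjusted p = 4.02e-15), and Mdm2, which degrades p53, rose 1.40-fold to 274 ± 12.3. The p53 target list as a whole gave 6 higher and 2 lower of 33. Of 30 tested immediate early genes 7 rose and 6 fell (median 0.09), or 4 rose without Control replicate 1, and Egr1 fell 1.77-fold from 137 ± 9.66 to 77.5 ± 5.26. In the NF-kB list 2 of 35 rose and 6 fell, or 2 and 4 of 32 without the places left out. Its 6 falls were 3 without Control replicate 2, Control replicate 3 or KO1 replicate 2 and 2 in DESeq2, and its rises 1 without Control replicate 2. Of SCAN and KRAB zinc finger genes, the family of Zscan10, 2 of 22 tested rose and 1 fell, with Zfp110 down 1.48-fold to 77.5 ± 6.97. No member of that list rose without Control replicate 1 or Control replicate 2, 1 rose without KO1 replicate 1 or KO1 replicate 2, and 2 fell without KO1 replicate 1.

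**Figure D4:**
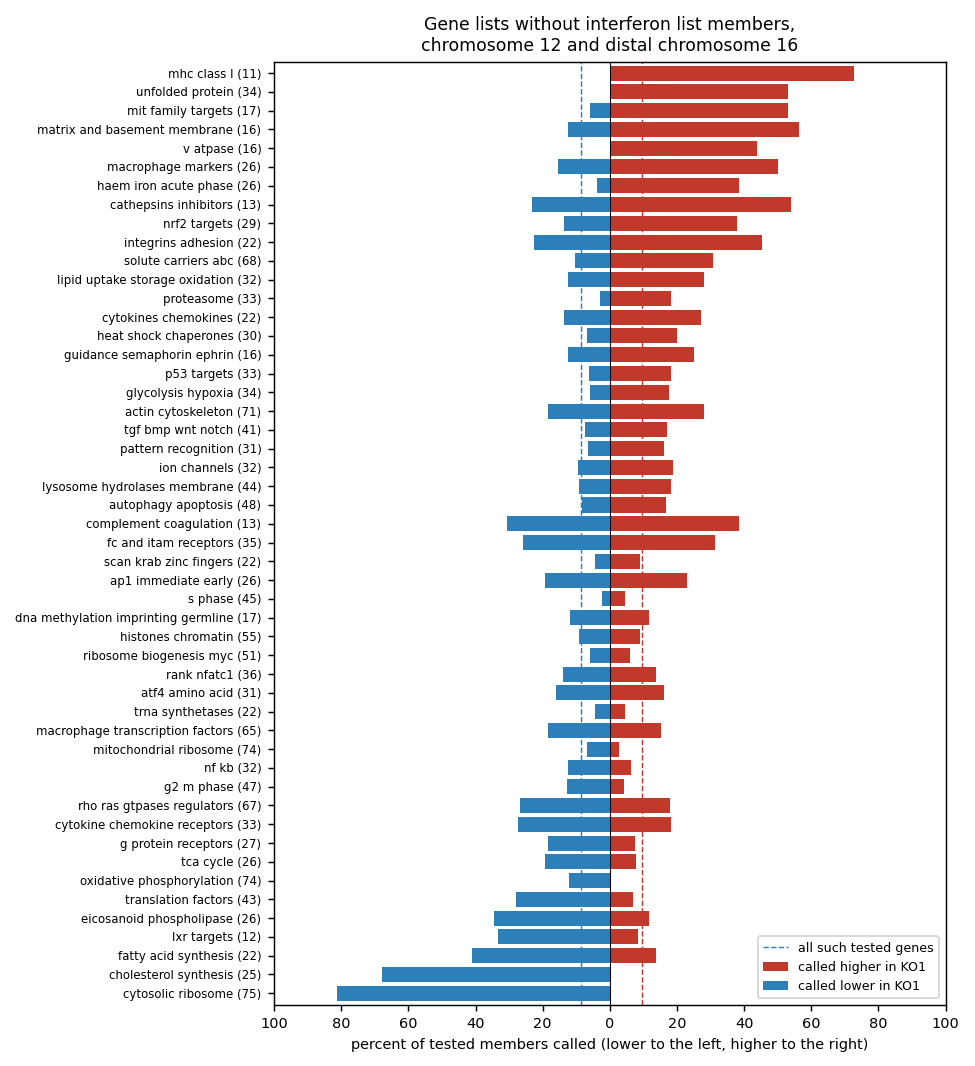
Percent of tested members called higher (right) and lower (left) in KO1 for the larger gene lists, with the number tested in brackets. Interferon list members, chromosome 12 and distal chromosome 16 are left out. Lists with few tested members, such as the osteoclast and neutrophil markers, are not drawn. Dashed lines mark the share of all such genes, 9.71% higher and 8.59% lower, and cytosolic ribosome and cholesterol synthesis reach furthest left.

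Genes of chromosome 12 and of distal chromosome 16 were mostly lower in KO1. On chromosome 12 152 of 347 tested genes fell and 15 rose (48.1% called, median log2 change -0.28). On distal chromosome 16 48 of 62 fell and 5 rose (85.5% called, median -0.80). Windows of 10 Mb gave medians of -0.31 to -0.25 along chromosome 12 and -0.74 from 90 to 100 Mb on chromosome 16, against -0.12 to 0.14 over 167 windows of the other chromosomes. Chromosome 12 held 3.43%, 3.45% and 3.47% of the reads of the Control libraries and 2.88%, 2.87% and 2.88% of those of KO1, a ratio of 0.833. Distal chromosome 16 held 0.545%, 0.542% and 0.548% against 0.325%, 0.322% and 0.330%, a ratio of 0.598. For each place every KO1 library lay below every Control library, and the exact permutation test, two-sided, gave p = 0.1, the smallest that 3 against 3 libraries allow.

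Single genes of these places went well past the common shift or against it. Pxdn on chromosome 12, peroxidasin, which crosslinks collagen, had 252, 274 and 269 in Control and 67, 54.9 and 61 in KO1, a 4.35-fold fall (limma adjusted p = 1.02e-28). Fos, also on chromosome 12, a subunit of the AP-1 factor that osteoclasts need, rose from 73.3, 66.8 and 58.7 to 134, 109.8 and 139, 1.93-fold (limma adjusted p = 2.59e-10). Flrt2, a membrane protein of cell guidance, rose 2.55-fold from 52.8 ± 4.26 to 135 ± 10.4 on the same chromosome. On distal chromosome 16 Jam2, a junction adhesion molecule, had 41.9, 37.3 and 36.7 in Control and 2 reads in KO1, a ratio of 56.6-fold (95% exact interval 15.3 to 473). Ifnar2, a chain of the receptor for type I interferons, had 214, 228 and 240.2 in Control and 74.2, 85.8 and 102 in KO1, a 2.61-fold fall (limma adjusted p = 1.86e-18). The receptor chain thus was lower in the libraries in which most genes of the interferon list were higher. Gbe1, the glycogen branching enzyme, rose 1.74-fold to 85 ± 11.8 against the direction of its neighbours.

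**Figure D5:**
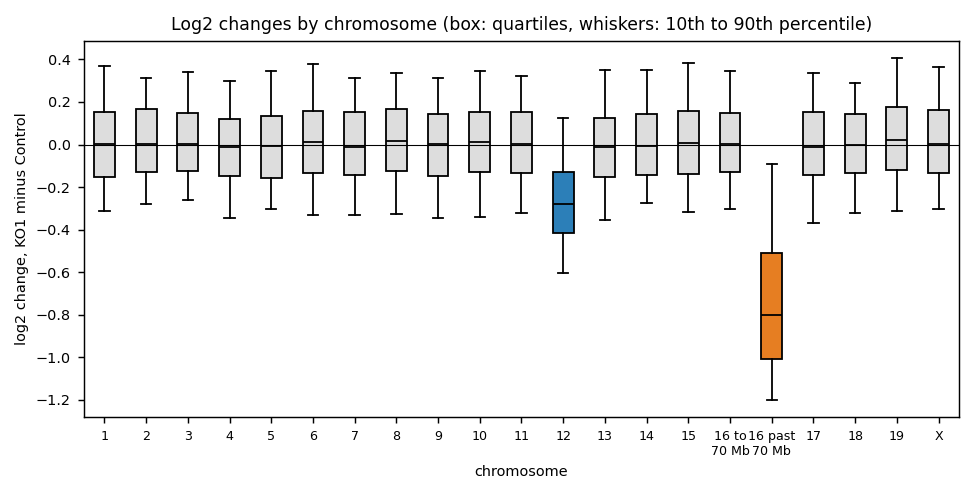
Log2 changes in KO1 against Control of tested genes by chromosome, with boxes from the lower to the upper quartile, a line at the median and whiskers from the 10th to the 90th percentile. The medians of chromosome 12 (-0.28) and distal chromosome 16 (-0.80) lie below 0, and those of the other chromosomes near it.

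Some of the large changes of KO1 stood apart from KO2 in the direct test. Psma8 was at 0 in KO1 and at 48.3 ± 5.30 in KO2 (log2 difference -5.62 ± 0.33, limma adjusted p = 1.26e-21), and Sptbn1 was at 28.9 ± 7.64 in KO2 (log2 difference -4.53 ± 0.35, limma adjusted p = 8.01e-17). Pla2g5 stood at 69.8 ± 1.04 in KO2 against 6.45 ± 2.17 in KO1 (log2 difference -3.30 ± 0.21, limma adjusted p = 2.40e-20). Sdc3 and Slc40a1, both higher in KO1 than in Control, stood at 12.8 ± 1.93 and 12.7 ± 1.42 in KO2, with log2 differences of 3.16 ± 0.20 and 2.17 ± 0.25 (limma adjusted p = 2.49e-20 and 1.22e-10). Losses that are not set apart in this way include Lama4, Scn11a and Fmnl2, which had 0 reads in KO2 as well. Ctsh had a KO2 mean of 5.57 ± 1.31 and lay lower in KO1 (log2 difference -1.16 ± 0.30, limma adjusted p = 0.00233), whereas Hpgd lay lower in KO2, at 0.393 ± 0.681 (log2 difference KO1 minus KO2 3.99 ± 0.28, limma adjusted p = 1.75e-18). The clones share their Control libraries, so these values are set side by side only.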

How the data were processed

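RNA of the 9 libraries was made into stranded mRNA libraries, per the labels. A deposited table covers every library and holds a signal, reads per gene after division by a size factor of each library, which the authors obtained by the TMM method per its name. A second deposited table gives the authors' FPKM values for Control and KO1. The p-values and q-values of the authors' own comparisons in the deposited tables were not used. The build mm10 and the tools featureCounts 1.4.6, edgeR 3.20.1, Cufflinks 2.1.1 and TopHat2 2.0.22 appear in the submitters' processing notes, and whether counting used strand is not given in the sources used here. Genes with antisense partners or near-identical copies can therefore share reads.

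Every value of the first table was a whole multiple of 1 step per library (100% within 1e-06), which gave back 1821703 to 2458539 reads per library. Normalised values were tested as log2(value + 1) by limma 3.58.1 with a trend (R 4.3.3), all 9 libraries in 1 fit, with Benjamini-Hochberg adjustment over the 9564 genes that reached 10 normalised reads in 3 or more libraries. The procedure was tested on simulated counts. edgeR 4.0.16 and DESeq2 1.42.0 on the recovered reads, limma-voom, other scalings, filters, pseudocounts and thresholds, a replicate block, the FPKM table and leaving out single libraries were the alternatives. A count of 3 reads over a group bounds ratios against 0 reads, and ratios against 1 to 3 reads carry 95% exact intervals that cover counting error only.

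Described genes were taken by rule: up to 15 per direction by log2 change, with 10 CPM or more on the higher side and no overlap, beyond the interferon list and the places left out; up to 4 per direction in each of those places; up to 10 per direction by difference in reads; and up to 5 per list by moderated statistic. A choice by statistic favours groups that do not overlap, so such separation is no further result. The groups compared, the 60 gene lists and the places left out were chosen with earlier results of these data known, so their counts are descriptions. Promoter windows are from RefSeq (GRCm38.p6), matched by symbol for 7303 of the tested genes. The tables that hold FPKM values of KO2 were not used.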

Additional observations from a re-analysis of the deposited data

How the results depend on the processing

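The counts of calls depended most on the test. DESeq2 called 559 genes lower, against 977 in limma, and 557 higher and 407 lower beyond the interferon list, chromosome 12 and distal chromosome 16, against 877 and 776. edgeR's quasi-likelihood test on the recovered reads called 1078 higher and 1038 lower. Tested by limma against a fold of 1.5, 179 genes were higher and 124 lower, and 92 and 95 beyond the list and places. At an adjusted p under 0.01, 513 of the latter were lower. Leaving out single libraries gave 865 to 901 genes higher and 809 to 872 lower, and 741 to 774 and 625 to 675 beyond the list and places. The share of reads from chromosome 12 stayed at 0.8303 to 0.8353 of that in Control, and that from distal chromosome 16 at 0.5935 to 0.6008, or 0.585 without the 5 genes of that region with most reads. A fit without the genes of both places, chosen after the data were seen, changed the call of none of the 112 described genes it held.

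The replicate numbers are not said to pair the libraries. Same-numbered libraries had residual correlations of -0.017 to 0.028. Of the 6 Control and KO1 libraries, 4 correlated best with the library of their own number in the other group. These values do not settle whether the numbers pair libraries. With the number as a replicate block 1014 genes were higher and 987 lower, and 883 and 786 beyond the list and places.

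Of 121 described genes none changed direction in any setting. The test against a fold of 1.5 ended the call of 51, and every other lost call was of Abca1 or Abcg1. Under DESeq2 the lower calls went from 14 to 8 in the cytoskeleton list, from 20 to 13 among regulators of small GTPases and from 11 to 5 in oxidative phosphorylation. Higher calls went from 12 to 6 among regulators of small GTPases, from 7 to 4 among proton pump subunits, from 9 to 6 among MiT targets and from 8 to 5 among lysosomal genes. Immediate early genes went from 7 to 2 higher, citrate cycle genes from 7 to 4 lower, and NF-kB and G2 and M phase genes from 6 to 2 lower. The depth, 1821703 to 2458539 reads per library, limits what could be called among genes near 10 normalised reads.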
